A study of Mus musculus with 29 samples.

Results

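The genes of the mitochondrial genome were followed in WT and 5A3+/del mice through 3 sorted populations, CD150neg MPP, CD150lo HSC and CD150hi HSC. They were taken as all entries of the expression table whose symbol begins with mt-, which gave 35 of 30025 genes: 13 protein-coding genes, 2 rRNA genes and 20 tRNA genes. The annotation of the mitochondrial chromosome lists 37 genes, and mt-Ti and mt-Td were not analysed here. A filter on low values, which asked for 4 or more of the 29 libraries with an FPKM of 1 or more, was passed by 25 of the 35, namely all 13 protein-coding genes, both rRNA genes and 10 tRNA genes. The data were 29 RNA-Seq libraries from 10 mice, 5 per genotype, with 5 libraries in each genotype and population and 4 in 5A3+/del CD150neg MPP. All mice were C57BL/6J and 12.42 to 13.85 weeks old. The 5A3+/del mice were heterozygous for a germ line deletion of the chromosome 5 segment between Fbxl13 and Srpk2, made in embryonic stem cells with Cre and LoxP sites, and the controls were WT. All cells were sorted from bone marrow as lineage-negative, CD41-negative, CD48-negative, Sca-1-positive and c-kit-positive cells, and the populations differ in the sorted level of CD150. The libraries of each population were compared between genotypes, and the populations were compared with each other.

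Mitochondria hold a small circular genome of their own. Both of its strands are transcribed into long precursors, which are cut mostly at the tRNAs that lie between the other genes. The proteins it encodes are all core subunits of the oxidative phosphorylation (OXPHOS) complexes, which the cell completes with subunits encoded in the nucleus: complex I (NADH dehydrogenase), complex III (the cytochrome bc1 complex), complex IV (cytochrome c oxidase) and complex V (ATP synthase). The rRNAs and tRNAs serve translation inside the organelle. Hematopoietic stem cells are known for a low reliance on mitochondrial respiration and a rise in it as they differentiate.

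In mm9 the mitochondrial chromosome is 16299 bases long, and the members lie close together or overlap. mt-Rnr1 (chrM:70-1024) and mt-Rnr2 (chrM:1094-2675) come first, followed by mt-Nd1 (chrM:2751-3707) and mt-Nd2 (chrM:3914-4951). mt-Co1 (chrM:5328-6872), mt-Co2 (chrM:7013-7696), mt-Atp8 (chrM:7766-7969), mt-Atp6 (chrM:7927-8607), mt-Co3 (chrM:8607-9390) and mt-Nd3 (chrM:9459-9806) follow, then mt-Nd4l (chrM:9877-10173), mt-Nd4 (chrM:10167-11544), mt-Nd5 (chrM:11742-13565), mt-Nd6 (chrM:13552-14070) and mt-Cytb (chrM:14145-15288). Of the protein-coding genes mt-Nd6 alone is on the minus strand. The overlaps of protein-coding genes are printed here, 5′ to 3′ on the plus strand of mm9, because fragments from these bases belong to both genes. Capitals mark the shared bases, 43 of mt-Atp8 and mt-Atp6 (window chrM:7907-7989), 7 of mt-Nd4l and mt-Nd4 (window chrM:10147-10193), and 14 of mt-Nd5 and mt-Nd6 (window chrM:13532-13585), which run on opposite strands.
mt-Atp8 and mt-Atp6: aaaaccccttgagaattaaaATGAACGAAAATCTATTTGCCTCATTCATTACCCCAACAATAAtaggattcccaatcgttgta
mt-Nd4l and mt-Nd4: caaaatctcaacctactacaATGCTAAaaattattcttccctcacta
mt-Nd5 and mt-Nd6: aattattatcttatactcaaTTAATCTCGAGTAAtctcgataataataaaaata
The library kits do not mark the strand, so that fragments of mt-Nd6 or of a minus-strand tRNA cannot be told apart from transcripts of the opposite strand at the same bases.

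The libraries held 21229468 to 38797732 fragments (median 26967089), recovered from the steps of the low values. Some features of the libraries moved with the groups. The WT mouse of replicate 3 had 261 to 329 scaled FPKM of Xist, the RNA of the inactive X chromosome, in its 3 libraries, and the other 26 had at most 0.43. The length index compares 877 nuclear protein-coding genes shorter than 1000 bases with 5115 longer than 4000 bases. The log2 value of each gene was taken relative to its mean over the 29 libraries. The index is the mean of these values over the short genes minus that over the long genes. This index was 0.073 ± 0.084 in the WT libraries of CD150hi HSC and -0.11 ± 0.092 in the 5A3+/del libraries (SD, n = 5 each). It was 0.11 ± 0.093 and -0.038 ± 0.032 in CD150lo HSC, and -0.031 ± 0.080 (n = 5) and -0.0077 ± 0.094 (n = 4) in CD150neg MPP. All 10 HSC and progenitor markers were measured, and their summed level was 741 to 1183 scaled FPKM in every library. The summed level of 11 granulocyte and monocyte markers was 234 to 345 in 5A3+/del CD150hi HSC, 270 to 1191 in WT CD150hi HSC, 237 to 1636 in WT CD150lo HSC, 249 to 623 in 5A3+/del CD150lo HSC, 248 to 283 in WT CD150neg MPP and 196 to 532 in 5A3+/del CD150neg MPP. The sums were 19.2 to 104 for 8 erythroid, 25.7 to 57.4 for 6 megakaryocyte, 6.49 to 33.4 for 6 B cell, 9.51 to 21.5 for 5 endothelial and stromal, 0.299 to 4.99 for 5 T cell and 0.0862 to 4.50 for 4 mast cell and basophil markers. Ctsg, Ms4a1, Cd3e, Cd3g, Mcpt8 and Prss34 were at 0 in all libraries of at least 1 group, and the part of other cells in the results was not tested. In such bulk samples, fewer cells of a type and less RNA per cell cannot be told apart.

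The rRNAs of the mitochondrial ribosome were among the 3 highest genes of every library. mt-Rnr2, the large-subunit rRNA, ranked first in every library, with 94577 to 168608 scaled FPKM, and mt-Rnr1, the small-subunit rRNA, ranked 2 or 3 with 33925 to 87767. Both rRNAs took 20.7% to 31.4% of all fragments of a library, the 13 mRNAs 0.935% to 1.69%, and the 20 tRNAs at most 0.00176%. Scaled FPKM is a level per length, in which each library is divided by its median ratio to the other libraries. On this scale mt-Co1, the catalytic subunit of complex IV, was the highest mRNA with a mean of 3074, above the next in 29 of 29 libraries. mt-Cytb, the single mitochondrial subunit of complex III, followed with 1356, then mt-Nd4 (1160) and mt-Nd1 (1006) of complex I, mt-Co3 (975) and mt-Co2 (855) of complex IV, mt-Atp6 (795) of complex V and mt-Nd5 (757) of complex I. Neighbours in this order overlapped: mt-Nd1 was above mt-Co3 in 18 of 29 libraries, and mt-Atp6 above mt-Nd5 in 12 of 29. The lower mRNAs were mt-Nd2 (245), mt-Nd6 (201), mt-Nd4l (187), mt-Nd3 (129) and mt-Atp8 (63.1). mt-Nd5 was above mt-Nd2, and mt-Nd3 above mt-Atp8, in all 29 libraries. The protein-coding genes that overlap differed in measured level. mt-Atp8 stood at 4.21% to 12.3% of the FPKM of mt-Atp6, with which it shares an mRNA, mt-Nd4l at 9.42% to 24.0% of that of mt-Nd4, and mt-Nd6 at 12.4% to 35.0% of that of mt-Nd5 on the other strand. The ratios of mt-Atp8 and mt-Nd4l are uncertain, because these genes and their partners lie wholly or in part in a nuclear copy described below. Both genes are also short, with 204 and 297 bases, and share bases with their partners. The part of this in the ratios was not tested.

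**Figure D1:**
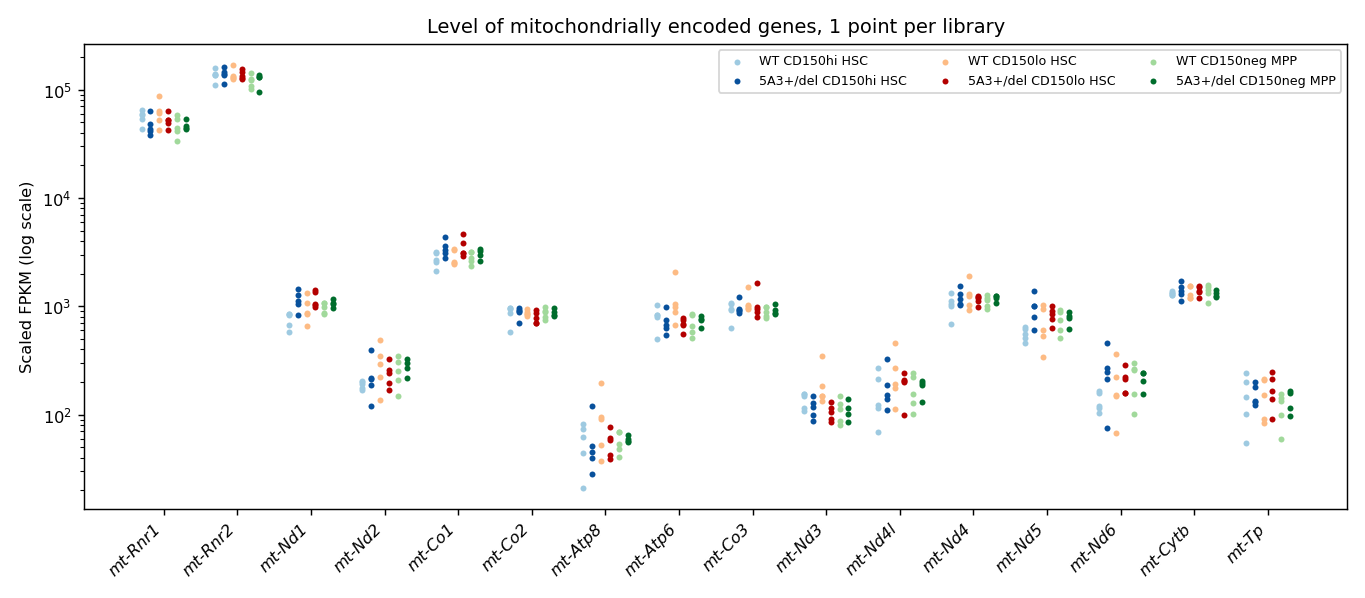
Scaled FPKM (log scale) of the 2 rRNA genes, the 13 protein-coding genes and mt-Tp in the order of their position, with 1 point per library and a colour per genotype and population. The rRNAs lie at 33925 and above and the mRNAs at 4684 and below, and the genotypes and populations overlap for most genes.

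The tRNA genes gave few fragments, with mt-Tp as the exception. mt-Tp (chrM:15356-15422, minus strand), the proline tRNA next to the control region, had 90 to 478 fragments per library and a mean of 146 scaled FPKM. mt-Ts1 (chrM:6870-6938, minus strand), a serine tRNA that overlaps the end of mt-Co1 by 3 bases, had 0 to 18 fragments, and the other 18 had 0 to 8. Both are printed in the direction of the gene, as the only tRNAs with a level well above the rest or a call in a comparison, with the anticodon in capitals.
mt-Tp: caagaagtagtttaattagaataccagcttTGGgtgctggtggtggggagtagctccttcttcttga
mt-Ts1: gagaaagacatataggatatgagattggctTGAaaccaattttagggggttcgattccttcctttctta
mt-Tn, the asparagine tRNA, was the next, with a mean of 1.35 scaled FPKM. mt-Th, mt-Tk and mt-Ts2, the histidine, lysine and second serine tRNAs, were the lowest, with 1, 2 and 3 fragments in all libraries together. Of the tRNAs 10 had at most 3 fragments, the floor used here, in every library. The strand set the measured tRNAs apart: 7 of the 8 on the minus strand passed the filter, and 3 of the 12 on the plus strand, which carries the rRNAs and all mRNAs but mt-Nd6.

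Nuclear copies of the mitochondrial genome bear on these values, because fragments from bases that are alike in both places can be assigned to either. A search of the mm9 genome with the mitochondrial sequence found 9 nuclear copies of at least 300 bases and 90% identity. The longest, chr1:24618374-24623027, was 99.9% identical over 4654 bases and held mt-Co2, mt-Atp8, mt-Atp6, mt-Co3, mt-Nd3 and mt-Nd4l whole, 63.6% of mt-Nd4 and 31.3% of mt-Co1. A copy on chromosome 2 (chr2:22442808-22446054, 97.4% identity over 3260 bases) held mt-Co1 and mt-Co2 whole and 49.2% of mt-Nd2. A copy on chromosome 4 (chr4:79648234-79651108, 93.0% identity over 2875 bases) held mt-Cytb and mt-Nd6 whole and 59.1% of mt-Nd5. No copy of this length covered mt-Nd1 or mt-Rnr1, and mt-Rnr2 was covered for 23.4%. Some of the genes annotated inside the copies on chromosomes 1 and 2 were counted at high levels. Gm10925 (chr1:24620814-24621627, minus strand), which matches 676 bases of mt-Atp6 and also bases of mt-Atp8, had 804 to 2655 scaled FPKM and 59.3% to 68.6% of the fragments counted for it and mt-Atp6 together. Gm10222 (chr1:24619243-24619539, minus strand), which matches mt-Nd4l, took 62.2% to 80.3% of the fragments of its pair. Gm13341 (chr2:22442811-22443482, minus strand) took 23.2% to 37.2% of those of its pair with mt-Co2, and Gm13340 (chr2:22443623-22445167, minus strand) 2.27% to 6.91% of those of its pair with mt-Co1. Gm13339, in the same copy, was low, with 2.37 to 16.2 scaled FPKM. On chromosome 4, Gm11407, Gm11408 and Gm11410 took at most 0.0256%, 0.189% and 0.0043% of the fragments of their pairs with mt-Nd5, mt-Nd6 and mt-Cytb. Values of the members inside the chromosome 1 copy are therefore uncertain in level. Sums of members with the annotated copy genes were an alternative, which for the chromosome 1 copy reached mt-Atp6 and mt-Nd4l only. No annotated gene was paired with mt-Nd3, mt-Co3, mt-Atp8 or mt-Nd4, so this alternative did not check their values.

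**Figure D2:**
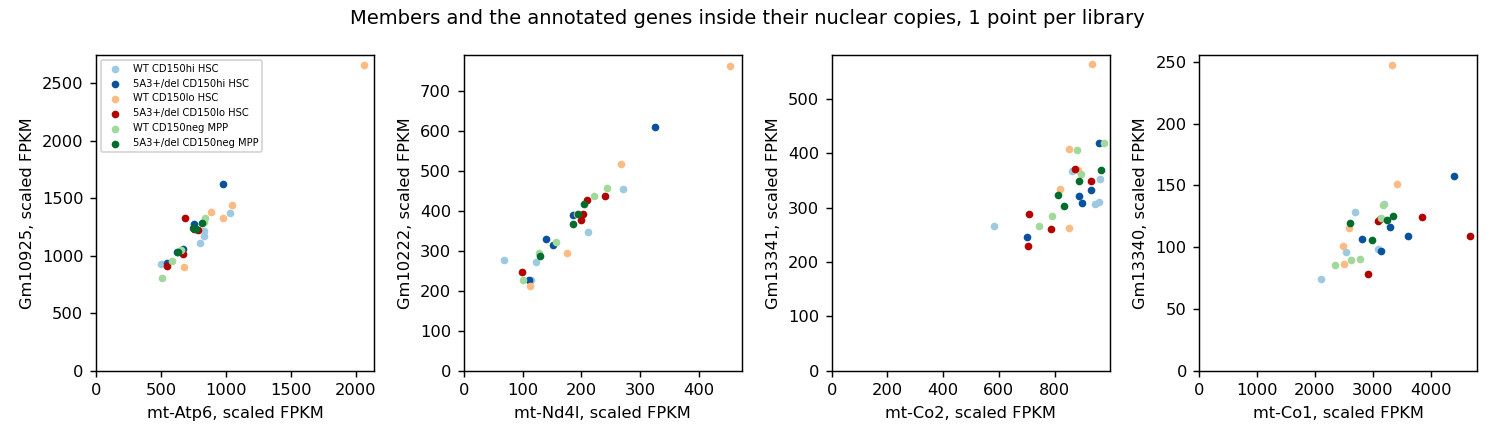
Scaled FPKM of 4 members (horizontal axes) against the annotated genes inside their nuclear copies (vertical axes), with 1 point per library and a colour per genotype and population. Gm10925 and Gm10222 lie above mt-Atp6 and mt-Nd4l in the same library, and WT CD150lo HSC replicate 3 is the highest point for both pairs.

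In CD150hi HSC no member was called between 5A3+/del and WT by limma with Benjamini-Hochberg adjustment over all genes, where 0.169% of the 15409 genes tested were called, 8 higher and 18 lower. With each library scaled by the sum of all other genes instead, which shifts the median of all genes to 0.17, 67 genes were called higher and 4 lower. Of the 25 members 5 had an unadjusted p-value under 0.05, against 13.6% of all genes. Of the 13 protein-coding members, 10 had a log2 fold change above 0, and the median was 0.17, beside 0.01 for all genes. Without the mouse of 5A3+/del replicate 4 the median was 0.01, and with the sum scaling it was 0.38.

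mt-Nd5, mt-Nd6 and mt-Nd1 of complex I had the largest log2 fold changes among the mRNAs of CD150hi HSC. mt-Nd1, a core subunit of the membrane arm, had 837, 845, 573, 851 and 669 scaled FPKM in the 5 WT libraries and 1043, 1127, 828, 1430 and 1279 in the 5 5A3+/del libraries. Only the lowest 5A3+/del library lay among the WT libraries. The log2 fold change was 0.59 ± 0.17 (SE, n = 5 and 5), with an adjusted p of 0.124 by limma. Scaled by the sum of all other genes it was called (0.80, adjusted p of 0.0456 by limma), as the only member. mt-Nd5, a proton-pumping subunit, had 641, 619, 457, 556 and 513 scaled FPKM in WT and 604, 1001, 804, 1369 and 1016 in 5A3+/del. Here 1 of the 5A3+/del libraries lay among the WT libraries, and the log2 fold change of 0.74 ± 0.25 had an adjusted p of 0.171 by limma. mt-Nd6, on the strand opposite to mt-Nd5, had 133 ± 28.1 in WT and 252 ± 137 in 5A3+/del (SD, n = 5 each), with a range of 74.7 to 457 in 5A3+/del that covered all WT values. mt-Nd4 and mt-Nd2 differed by 0.23 and 0.17 on the log2 scale, mt-Nd4l by 0.27 and mt-Nd3 by -0.25, each by less than 2 SE.

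Of the other complexes, mt-Co1 of complex IV had 3197, 3096, 2113, 2694 and 2544 scaled FPKM in WT and 3136, 3295, 2816, 4399 and 3609 in 5A3+/del, which overlap, with a log2 fold change of 0.34 ± 0.15 and an adjusted p of 0.324 by limma. mt-Co2 (log2 fold change 0.04), mt-Co3 (0.09), mt-Cytb (0.08), mt-Atp6 (-0.16) and mt-Atp8 (-0.03) lay close to 0, as did mt-Rnr2 (0.03). mt-Rnr1 had 55752 ± 8041 scaled FPKM in WT and 46951 ± 10012 in 5A3+/del, a log2 fold change of -0.26. Among the tRNAs mt-Te, the glutamate tRNA, had 1, 3, 1, 7 and 7 fragments in 5A3+/del and 0, 1, 0, 0 and 1 in WT. In scaled FPKM it was the only member without overlap between the genotypes in this population, where 2.64% of all genes had none, and most of its counts were at or under the floor. mt-Ts1 had 4, 5, 10, 10 and 10 fragments in 5A3+/del and 5, 1, 0, 4 and 2 in WT, and its adjusted p was 0.106 by limma.

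In CD150lo HSC again no member was called between the genotypes, with 0.0324% of all genes called, 5 members with an unadjusted p under 0.05 and 6.69% of all genes. The median log2 fold change of the 13 protein-coding members was -0.11, with 5 of them above 0, beside 0.01 for all genes. Without the mouse of WT replicate 3 the median was 0.04. mt-Nd3, a small subunit of complex I, had 134, 183, 349, 150 and 147 scaled FPKM in WT and 106, 85.8, 130, 90.5 and 114 in 5A3+/del. The groups did not overlap, and WT replicate 3 was far above the other 4 WT libraries. The log2 fold change was -0.79 ± 0.22 with an adjusted p of 0.213 by limma, and -0.55 without the mouse of WT replicate 3 (adjusted p of 0.608 by limma). mt-Atp6, the proton channel subunit of complex V, had 677, 1051, 2062, 978 and 890 in WT and 686, 753, 787, 551 and 668 in 5A3+/del. Here too WT replicate 3 was the highest, and 3 of the 5A3+/del libraries lay within the WT range. The log2 fold change of mt-Atp6 was -0.62 ± 0.22 with an adjusted p of 0.472 by limma, -0.37 without WT replicate 3, and -0.45 when the fragments of Gm10925 were added. mt-Atp8, which shares an mRNA with mt-Atp6, had 93.9 ± 61.6 in WT and 55.3 ± 15.2 in 5A3+/del (SD, n = 5 each), with overlapping ranges. mt-Nd5 (0.37), mt-Nd1 (0.32), mt-Co1 (0.30) and mt-Nd6 (0.29) had values above 0 as in CD150hi HSC, each by less than 2 SE. mt-Nd3 and mt-Tn were the 2 members without overlap, against 1.52% of all genes, and mt-Tn had 4 to 7 fragments in WT and 0 to 3 in 5A3+/del.

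In CD150neg MPP the mRNAs differed little between the genotypes. No member was called by limma, where 0.0454% of all genes were called, 1 member had an unadjusted p under 0.05, and so had 4.21% of all genes. The log2 fold changes of the 13 protein-coding members ran from -0.08 for mt-Cytb to 0.17 for mt-Nd2, with a median of 0.10 and 12 of 13 above 0. Without the mouse of WT replicate 1 the median was -0.0027. mt-Nd1 had 841, 860, 1075, 979 and 1069 scaled FPKM in WT and 961, 1048, 1169 and 1074 in 5A3+/del, and the groups overlapped. mt-Ts1 was the only member without overlap, where 1.53% of all genes had none, with 8, 16, 16, 14 and 18 fragments in WT and 6, 8, 5 and 4 in 5A3+/del, a log2 fold change of -0.98 ± 0.35 and an adjusted p of 1 by limma.

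**Figure D3:**
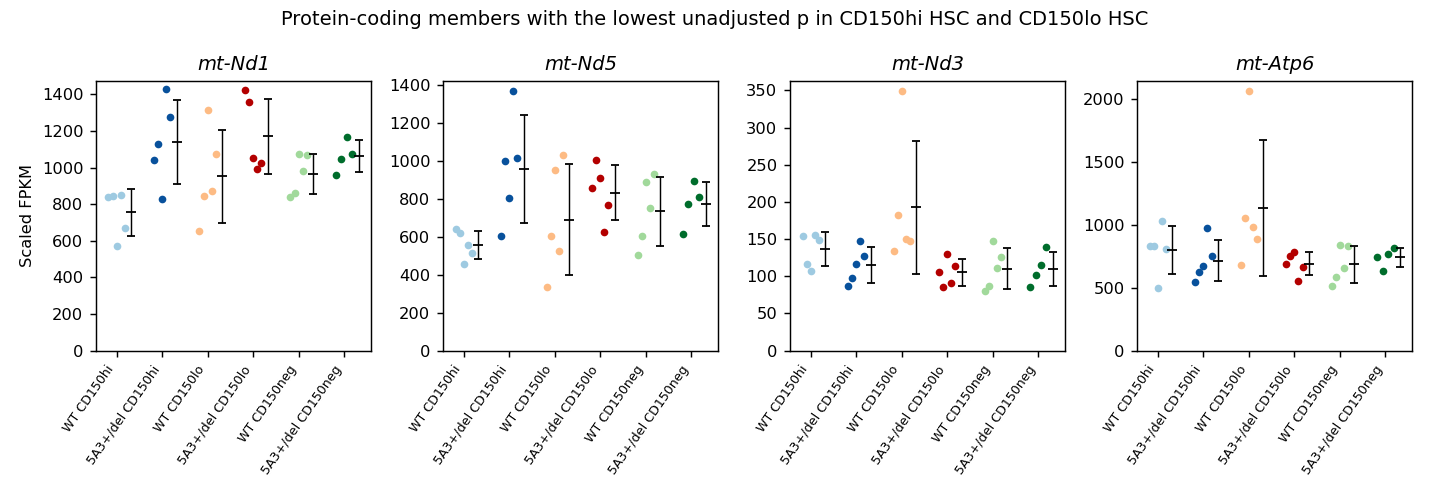
Scaled FPKM of mt-Nd1, mt-Nd5, mt-Nd3 and mt-Atp6 in each library, grouped by genotype and population, with the mean and SD in black. mt-Nd1 and mt-Nd5 are higher in most 5A3+/del libraries of CD150hi HSC, and the high point of WT CD150lo HSC in mt-Nd3 and mt-Atp6 is replicate 3.

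Over all populations, with the mouse as a block, 0.149% of all genes and no member were called between the genotypes. Of the members, 5 had an unadjusted p under 0.05, beside 9.84% of all genes. The log2 fold changes of these were 0.35 ± 0.11 for mt-Nd1 (adjusted p of 0.194 by limma), 0.40 ± 0.15 for mt-Nd5, 0.25 ± 0.097 for mt-Co1, -0.34 ± 0.14 for mt-Nd3 and 0.49 ± 0.22 for mt-Te. The difference between the genotypes was also compared between populations. In both interaction tests 0% of the genes and no member were called by limma. An unadjusted p under 0.05 was seen for 2 members and 4.06% of all genes for CD150lo HSC minus CD150hi HSC, and for 2 members and 8.25% of all genes for CD150neg MPP minus CD150hi HSC. mt-Ts1 had the lowest of these p-values, with an interaction of -2.20 ± 0.48 on the log2 scale in CD150neg MPP minus CD150hi HSC (unadjusted p of 0.000101, adjusted p of 0.173 by limma).

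**Figure D4:**
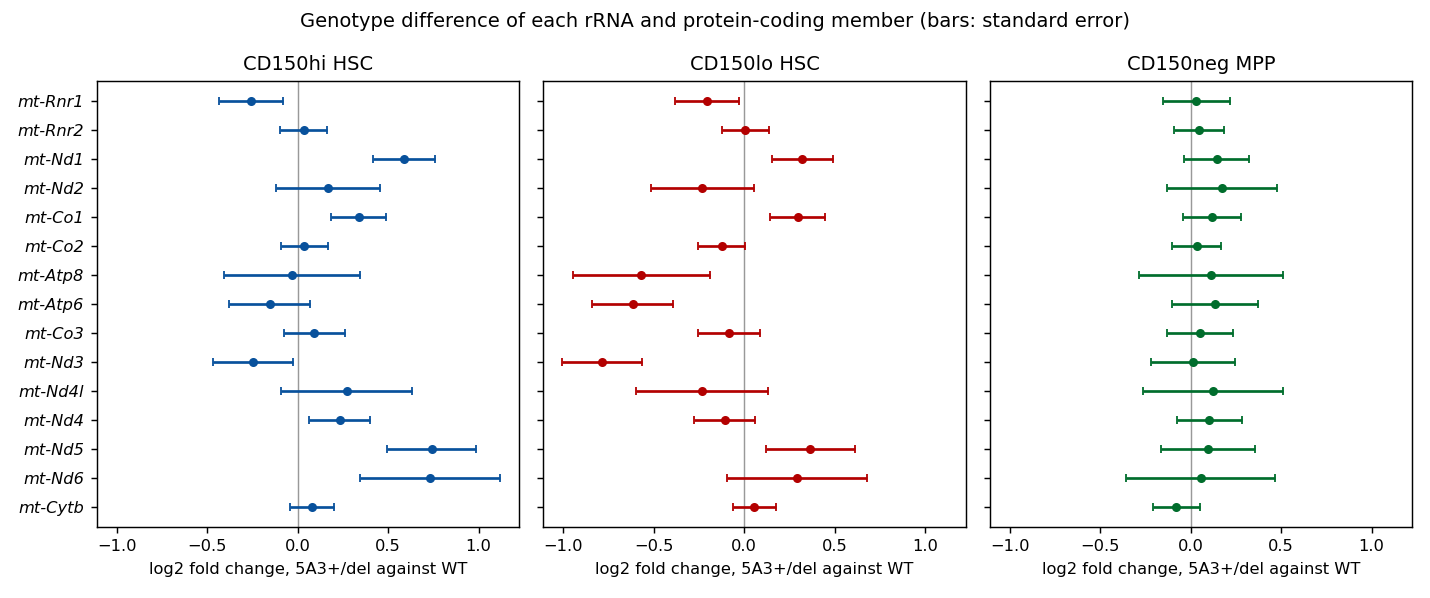
Log2 fold change of 5A3+/del against WT with its standard error for the 2 rRNA and 13 protein-coding genes in each population, in the order of their position. mt-Nd1 and mt-Nd5 lie at 0.59 and 0.74 in CD150hi HSC, mt-Nd3 and mt-Atp6 at -0.79 and -0.62 in CD150lo HSC, and all mRNAs between -0.08 and 0.17 in CD150neg MPP.

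The differences between the genotypes in HSC varied with the length of the gene and with its place in the chromosome 1 copy. Across the 13 protein-coding members, which share their libraries and are not independent, Spearman's rho between log2 fold change and exon length was 0.02 in CD150neg MPP, 0.70 in CD150lo HSC and 0.49 in CD150hi HSC. The 7 members that lie in the chromosome 1 copy for at least 50% of their length had a median log2 fold change of 0.04 in CD150hi HSC and -0.23 in CD150lo HSC, and the other 6 had 0.46 and 0.29. All 7 lay below 0 in CD150lo HSC, where 5 of the other 6 lay above 0. In CD150neg MPP the medians were 0.10 and 0.11. These members are also shorter on the whole, so that length and place cannot be told apart. Nuclear protein-coding genes varied with length in the same populations: those shorter than 1000 bases had a median log2 fold change of 0.03 in CD150neg MPP, -0.14 in CD150lo HSC and -0.17 in CD150hi HSC, and those of 4000 bases and more had -0.02, 0.04 and 0.05. With the length index as a covariate, an alternative chosen after seeing the data, mt-Nd1 had a log2 fold change of 0.55 and mt-Nd5 of 0.79 in CD150hi HSC, and mt-Nd3 of -0.53 and mt-Atp6 of -0.47 in CD150lo HSC. The adjusted p by limma was then 0.696 for mt-Nd1 and mt-Nd5 and 0.996 for mt-Nd3 and mt-Atp6, each higher than in the main fit. The part of the length index in these differences was not tested beyond this fit.

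**Figure D5:**
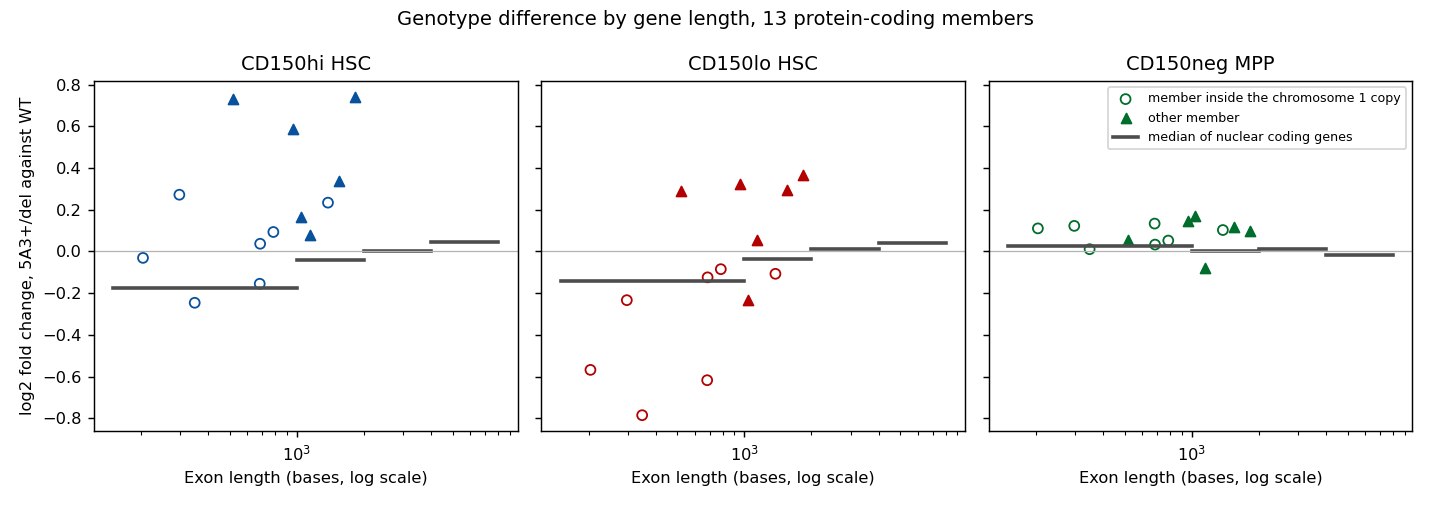
Log2 fold change of 5A3+/del against WT for the 13 protein-coding members against exon length (bases, log scale) in each population. Open circles are members inside the chromosome 1 copy, triangles the other members, and grey lines the median of nuclear protein-coding genes in 4 length classes, which rises with length in CD150hi HSC and CD150lo HSC.

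The make-up of the mitochondrial mRNA is described here as the share of its fragments that fell on each complex. In CD150hi HSC complex V took 3.97% to 6.27% in the WT libraries and 3.26% to 3.91% in the 5A3+/del libraries, and complex I took 30.3% to 33.1% and 34.0% to 38.0%. Neither share overlapped between the genotypes in this population. In CD150lo HSC the share of complex V was 4.36% to 8.68% in WT and 3.00% to 4.12% in 5A3+/del, again without overlap, and that of complex I was 28.4% to 39.0% and 31.6% to 36.6%. In CD150neg MPP complex V took 3.65% to 4.32% and 3.68% to 4.56%, and complex III took 12.56% to 14.63% in WT and 11.53% to 12.23% in 5A3+/del, without overlap. Complex IV took the largest share throughout, 41.9% to 56.8%, and its ranges overlapped between the genotypes in every population. The ranges of complex III overlapped in both HSC populations. Its median was 12.67% in WT and 11.34% in 5A3+/del for CD150hi HSC, and 12.45% and 12.61% for CD150lo HSC. The ranges of complex I overlapped in CD150neg MPP. The shares of a library add up to a fixed total and are not independent. How often such shares lack overlap without a difference was not tested. The length index given above moved with genotype in the same 2 HSC populations, and its part in the shares was not tested. Both complex V genes also lie in the chromosome 1 copy. Gm10925 took 62.5% ± 3.0% of the fragments of its pair with mt-Atp6 for WT and 65.3% ± 0.71% for 5A3+/del in CD150hi HSC. In CD150lo HSC it took 60.9% ± 1.7% and 65.2% ± 2.1% (SD, n = 5 each). The part of the nuclear copy in the shares was not tested. In CD150hi HSC the ratio of mt-Rnr2 to mt-Rnr1 was 2.45 ± 0.12 for WT and 3.02 ± 0.41 for 5A3+/del (SD, n = 5 each), with ranges of 2.32 to 2.58 and 2.55 to 3.59 that overlapped.

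Between populations 1 member was called. mt-Ts1 was higher in CD150neg MPP than in CD150hi HSC, with a log2 fold change of 0.83 ± 0.24 and an adjusted p of 0.0196 by limma, where 12.9% of all genes were called and 6.17% called higher. Its counts were low, 0 to 5 fragments in WT CD150hi HSC, 8 to 18 in WT CD150neg MPP, 4 to 10 in 5A3+/del CD150hi HSC and 4 to 8 in 5A3+/del CD150neg MPP. The gene also lies whole in the nuclear copies on chromosomes 1 and 2, and their part in its counts was not tested. The difference was 1.93 ± 0.33 within WT (adjusted p of 0.000206 by limma, 9.81% of all genes called) and -0.27 ± 0.35 within 5A3+/del (adjusted p of 0.783 by limma, 6.18% called), and the test of the difference between them is the interaction given above. The call was lost without the mouse of WT replicate 2 (adjusted p of 0.0606), WT replicate 3 (0.0676), 5A3+/del replicate 1 (0.0635) or 5A3+/del replicate 2 (0.0902).

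The mRNAs and rRNAs were not called between any of the populations. In CD150lo HSC against CD150hi HSC 7.46% of all genes and no member were called by limma, 1 member and 2927 genes in all had an unadjusted p under 0.05, and the 13 protein-coding members had a median log2 fold change of 0.15 with 12 of them above 0, which was 0.0058 without the mouse of WT replicate 3. In CD150neg MPP against CD150hi HSC the median was 0.05 with 8 above 0 (-0.05 without the mouse of WT replicate 3), and 2 members and 24.9% of all genes had an unadjusted p under 0.05. In CD150neg MPP against CD150lo HSC it was -0.06 with 4 above 0, and 0.253% of all genes and no member were called by limma, with 3 members and 7.74% of all genes at an unadjusted p under 0.05. mt-Rnr1 differed by -0.27 ± 0.13 and mt-Nd3 by -0.34 ± 0.16 in that comparison (adjusted p of 0.620 and 0.623 by limma). mt-Nd2 had the largest difference of the mRNAs in CD150neg MPP against CD150hi HSC, 0.38, with 187 ± 15.2 and 226 ± 102 scaled FPKM for WT and 5A3+/del in CD150hi HSC and 254 ± 77.8 and 277 ± 46.6 in CD150neg MPP.

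The nuclear genes that act on the mitochondrial genome were looked up from lists. The tested genes were 20 of mtDNA maintenance and transcription, 39 of mitochondrial RNA processing and stability and 17 mitochondrial aminoacyl-tRNA synthetases. None was called between the genotypes in any population or over all of them. Of all genes 0.169% were called in CD150hi HSC, 0.0324% in CD150lo HSC, 0.0454% in CD150neg MPP and 0.149% over all populations. In CD150hi HSC 2, 4 and 2 of the listed genes had an unadjusted p under 0.05. In CD150lo HSC there were 0, 0 and 2, and in CD150neg MPP 0, 4 and 1. The shares of all genes with such a p are given above for each population. The median log2 fold changes of the lists over all populations were 0.04, 0.01 and 0.00. The most different members of the first list over all populations were Tfam, the factor that packages mtDNA and starts its transcription (-0.16), Dguok (-0.12) and Tk2 (0.15), kinases that supply nucleotides for mtDNA. Those of the second were 1110008L16Rik (0.42), Cdk5rap1, which modifies mitochondrial tRNAs (-0.49), and Tufm, the elongation factor of mitochondrial translation (-0.25). Those of the third were Lars2 (0.46), Ears2 (0.38) and Hars2 (-0.23). Between populations 1 of these genes was called, named here after its value was seen: Lig3, the DNA ligase of mitochondria, with a log2 fold change of -0.26 in CD150lo HSC against CD150hi HSC (adjusted p of 0.0347 by limma). In that comparison 7.46% of all genes were called. In CD150neg MPP against CD150hi HSC the most different were Top1mt (0.51), Rnaseh1 (-0.31) and Ssbp1 (0.23) of the first list, Fastkd1 (-0.31), Rnmtl1 (0.52) and Fastkd3 (-0.34) of the second, and Mars2 (0.46), Ears2 (0.30) and Vars2 (-0.22) of the third, of which none was called. Of all genes 12.9% were called there.

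The nuclear subunits of the same complexes had medians below 0 in both HSC populations, except complex III in CD150hi HSC (0.0042). Of 72 nuclear subunits tested, 2 had an unadjusted p under 0.05 in CD150neg MPP, 25 in CD150lo HSC and 20 in CD150hi HSC, beside 4.21%, 6.69% and 13.6% of all genes, and none was called in a single population. Of all genes 0.0454%, 0.0324% and 0.169% were called in these populations. The median log2 fold changes of the nuclear subunits of complexes I, III, IV and V were -0.18, 0.00, -0.16 and -0.19 in CD150hi HSC, -0.23, -0.32, -0.27 and -0.26 in CD150lo HSC, and -0.06, -0.03, -0.0031 and 0.06 in CD150neg MPP. Over all populations 0.149% of all genes were called. Here Ndufb10, an accessory subunit of complex I, was called lower in 5A3+/del, with a log2 fold change of -0.58 ± 0.12 (adjusted p of 0.0426 by limma). It had 23.5 ± 8.62 scaled FPKM for WT and 14.0 ± 2.44 for 5A3+/del in CD150hi HSC (SD, n = 5 each). The next were Ndufb5 (-0.41) and Ndufa13 (-0.35) of complex I, Uqcrq (-0.44), Uqcr11 (-0.24) and Uqcrfs1 (-0.21) of complex III, Cox4i1 (-0.31), Cox5b (-0.26) and Cox7a2l (-0.17) of complex IV, and Atp5e (-0.44), Atp5l (-0.31) and Atp5b (0.24) of complex V, of which none was called. The mean log2 value of the 13 mitochondrial mRNAs exceeded that of the nuclear subunits by 3.81 ± 0.24 for WT and 4.22 ± 0.33 for 5A3+/del in CD150hi HSC. In CD150lo HSC it was 4.08 ± 0.52 and 4.21 ± 0.20, and in CD150neg MPP 4.09 ± 0.27 and 4.19 ± 0.12, with overlapping ranges in each population. Many of the nuclear subunits have short mRNAs, and the length index above moved with genotype in the same populations. In CD150lo HSC against CD150hi HSC 1 of the 72 was called, Uqcrfs1 of complex III (0.54, adjusted p of 0.00788 by limma), named here after its value was seen, beside 7.46% of all genes. In CD150neg MPP against CD150hi HSC, beside 12.9% of all genes, 1 of the 72 was called higher, Atp5b (0.33), and 4 lower, Cox4i1 (-0.30), Cox7b (-0.25), Atp5j (-0.32) and Atp5g3 (-0.33).

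The mitochondrial mRNAs varied together over the 29 libraries. Pearson's r between an mRNA and the mean log2 value of the other 12 was highest for mt-Nd4l (0.93), mt-Nd2 (0.85) and mt-Atp8 (0.85) and lowest for mt-Co2 (0.55) and mt-Nd3 (0.58). With the mean of all 13, r was 0.77 for mt-Rnr1, 0.61 for mt-Rnr2 and 0.28 for mt-Tp. Outside the mitochondrial genome, the 10 genes most like the mean of the 13 were Gm10222 (0.93), Gm13340 (0.91), Lin7c (0.90), Gm10925 (0.87), Sh3bgrl (0.86), Gm14681 (0.86), Gm13339 (0.86), Srsf1 (0.85), Gm13135 (0.83) and Tmx3 (0.83), beside an r of 0.62 at the 99th percentile of all genes. Gm10222, Gm13340, Gm10925 and Gm13339 lie inside the nuclear copies. The libraries share their depth, amplification and mice, and these correlations are a description.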

How the data were processed

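RNA from sorted bone marrow populations was amplified from 10 ng with the Ovation V2 system and made into TruSeq v2 libraries, without strand marks, for paired-end sequencing. The authors deposited 1 table of FPKM (fragments per kilobase of exon, relative to the depth of the library) for 30025 genes in 29 libraries, and per the labels' processing notes the build was mm9 and the tools were Bowtie 0.12.2 and HTSeq. The study's own differential test used quantile-normalized coverage, and those values were not used here. Samples were grouped by the genotype and population in the labels. The labels name the CD150neg population CD150neg HSC, and the name CD150neg MPP used here is that of the study. Within a group each library is from a different mouse, and p-values measure the spread between libraries within groups. The comparisons between populations and the interaction tests had no term for the mouse, although the same mice gave several populations. Libraries of the same mouse share a replicate number within a genotype, while equal numbers in WT and 5A3+/del are different mice.

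Genes with FPKM of 1 or more in 4 or more libraries (15409) were kept. Each library was scaled by its median ratio to the geometric mean over 13256 genes above 0 in all libraries, and log2(scaled FPKM + 1) was fitted with limma 3.58.1 (R 4.3.3) over the 29 libraries, with Benjamini-Hochberg adjustment over all genes and a threshold of 0.05. Fold changes are on this scale, which understates those of low genes. The mouse was a random block in the comparison over all populations (correlation within mouse 0.072). Fragments were recovered from the steps of low FPKM values and exon lengths of the annotation, which matched 29279 genes (97.5%). Of values up to 20 fragments 98.4% to 98.9% were whole within 0.05. The floor was 3 fragments, and it covers counting error only. Nuclear copies were found with blastn 2.17.0 in mm9. Python 3.11.15, pandas 2.3.3, numpy 2.4.6, scipy 1.17.1 and samtools 1.23.1 were also used. On simulated data for the CD150hi HSC comparison (15409 genes), 134 of 200 genes changed by a log2 of 1 were recovered with 3 false calls, and none was called without a change.

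The members and the gene lists were chosen with earlier results of these data known. Values are given for all protein-coding and rRNA members, for the tRNAs called or with the 3 highest and 3 lowest means, for up to 3 genes of each nuclear list by their statistic, and for the 10 genes most like the mean of the mRNAs. Alternatives were other scalings, pseudocounts, filters, blocks, covariates and leaving out each mouse, and the length index covariate and the adding of nuclear copies were chosen after seeing the data. The level of 1 marker gene is not reported here.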

Additional observations from a re-analysis of the deposited data

Results flagged for a closer look

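In 144 groups of values (each member or summary in each genotype and population), 12 had a library far from the others by Dixon's criterion, and chance flags about 1 in 20 groups. WT CD150lo HSC replicate 3 was the highest of its group in 5 of them. Its mt-Atp6 was 2062 scaled FPKM (the others 677 to 1051), its mt-Co3 1507 (947 to 1033), its mt-Nd3 349 (134 to 183) and its mt-Rnr2 168608 (124969 to 132439), and the rRNAs took 31.4% of its fragments (25.6% to 27.1%). In WT CD150hi HSC replicate 3 mt-Co2 was the lowest at 581 (861 to 964). In 5A3+/del CD150hi HSC mt-Co2 was lowest in replicate 1 at 699.7 (886 to 958), and replicate 4 was highest for mt-Atp8 at 120.3 (28.1 to 51.5) and mt-Co3 at 1212 (862 to 938). In 5A3+/del CD150lo HSC mt-Co3 was highest in replicate 1 at 1638 (796 to 977), and mt-Nd4l was lowest in replicate 4 at 99.6 (199.9 to 240.0). In 5A3+/del CD150neg MPP mt-Rnr2 was lowest in replicate 1 at 94577 (131063 to 137098).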

How the results depend on the processing

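The member calls depended on few settings: mt-Nd1 in CD150hi HSC was called when libraries were scaled by the sum of all other genes (1 member called), and leaving out 1 mouse at a time gave 0 to 1 members called in CD150neg MPP against CD150hi HSC, the 1 without WT replicate 2 being mt-Tl1 (0.90, adjusted p of 0.0284 by limma) in place of mt-Ts1. The median of the 13 protein-coding members depended on single mice and on the scaling. Between genotypes in CD150hi HSC it ran from 0.01 (without 5A3+/del replicate 4) to 0.38 (sum scaling). It turned sign in CD150lo HSC between genotypes with quantile normalization (0.08), the sum scaling (0.02), the length index (0.02) and without WT replicate 3 (0.04), in CD150neg MPP between genotypes without WT replicate 1 (-0.0027), in CD150neg MPP against CD150hi HSC without WT replicate 3 (-0.05) and without 5A3+/del replicate 3 (-0.0041), and in CD150neg MPP against CD150lo HSC with quantile normalization (0.04) and the sum scaling (0.03).

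Counts over all genes moved more. Between genotypes in CD150hi HSC, 26 genes were called, and 71 with the sum scaling, 126 with a pseudocount of 10, 49 with FPKM of at least 5, 65 with limma trend and 1 with the length index. In CD150lo HSC 5 were called, and 0, 37, 11 and 3 with the sum scaling, the pseudocount of 10, limma trend and the length index. In CD150neg MPP 7 were called, and 3 with the sum scaling and 4 with the pseudocount of 10 or no filter. Over all populations 23 were called, and 38 with quantile normalization, 41 with the sum scaling, 84 with the pseudocount of 10, 39 with FPKM of at least 5, 51 with limma trend and 11 with the length index. In CD150neg MPP against CD150lo HSC 39 were called, and 18 with the length index. The cause of these moves was not tested. The share called higher moved by over 10 points in some scalings: deposited FPKM gave 4 higher and 18 lower in CD150hi HSC, 0 and 6 in CD150neg MPP, and 18 and 21 (from 13 and 26) in CD150neg MPP against CD150lo HSC. The sum scaling gave 32 and 9 (from 7 and 16) over all populations, 1147 and 713 (from 951 and 1041) in CD150neg MPP against CD150hi HSC, and 17 and 13 in CD150neg MPP against CD150lo HSC.

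Equal replicate numbers in WT and 5A3+/del are different mice, and a replicate block by number gave 0 calls in each population, as did a fit of only the groups compared. Over all populations 47 genes were called with no replicate block for the mouse, and the block changed no member call. Leaving out 1 mouse gave 4 to 39 genes in CD150hi HSC, 3 to 122 in CD150lo HSC (122 without WT replicate 5), 3 to 8 in CD150neg MPP, 16 to 29 in CD150neg MPP against CD150lo HSC, and 11 to 65 over all populations (65 without WT replicate 5). Single members were followed under all alternatives where their unadjusted p by limma was under 0.05 in the main fit, interactions left out. Of these values 505 kept their side of the threshold on the adjusted p, 2 came to pass it and 4 ceased to. The tRNAs other than mt-Tp and mt-Ts1 had a median of at most 3 fragments per library, and the cause of their low counts was not tested.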
